A study of Mus musculus with 14 samples.

Results

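The comparison set every library from bone marrow stromal cells able to form bone cells against every library without that ability. It used all 14 libraries of the study and divided them by label. The 10 osteogenic-capable libraries carry an O in their name (OAC1, OAC2, OAC3, OA1, OA2, OA3, O1, O2, O3 and OC3), and the 4 non-osteogenic libraries do not (A1, A2, A3 and AC3). The letters O, A and C stand for osteogenic, adipogenic and chondrogenic potential. The cells were flushed from femora and tibiae of adult C57Bl/6 mice of the irtTA-GBD*-TAg transgenic line, in which dexamethasone and doxycycline together switch on Large T-antigen, so that cells of every group were conditionally immortalized and cloned under both agents. Potential was scored in 96-well plates after both agents were removed, and the cells were kept without them for 3 days before RNA was taken. In each of the OAC, OA, O and A groups, numbers 1 and 2 each stand for 1 clone, taken from different mice, while number 3 mixes several further clones of the same mice. OC3 and AC3 are pools with no replicate. P-values therefore measure the spread between these few clones and pools. All 4 non-osteogenic libraries can form adipocytes, whereas O1, O2, O3 and OC3 cannot, so the full comparison also differs in adipogenic potential. A second comparison kept only the 6 OAC and OA libraries against the 4, so that every library in it was adipogenic-capable.

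Marrow stromal progenitors give rise to osteoblasts, adipocytes and chondrocytes. Runx2 and, downstream of it, Sp7 (osterix) are transcription factors required for osteoblast formation. Osteoblasts secrete a matrix of type I collagen, which is mineralized with the help of alkaline phosphatase (Alpl) and acidic matrix proteins such as bone sialoprotein (Ibsp). Clec11a, or osteolectin, is a secreted growth factor made by marrow stromal cells that promotes osteogenesis and binds the integrin made of Itga11 and Itgb1.

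Total counts ranged from 16888190 to 26076539 per library. Stromal markers were present in all 14 libraries (Pdgfra 23.1 to 241 CPM, Pdgfrb 297 to 1047 CPM, Prrx1 104 to 407 CPM), except Thy1, which was at 0 in 12 of them. CPM is the usual count share of a gene, here taken against the TMM-scaled library size. The leukocyte marker Ptprc was at 0 in 12 libraries and the endothelial marker Cdh5 in 10. Summed levels of the blood cell list were 5.38 to 48.5 CPM in the 10 and 5.91 to 17.3 CPM in the 4, and of the endothelial list 1.45 to 8.04 CPM and 2.30 to 9.07 CPM. The correlation, across genes, of a library's deviation from the mean with transcript GC content was highest in OA2 and O1 (Spearman rho 0.648 and 0.509) and ran from -0.535 in OAC3 to 0.340 in OAC2 in the other 12. Results are also given without OA2 and O1. In bulk RNA, fewer cells that express a gene and less RNA per cell cannot be told apart.

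The markers of osteogenic potential separated the groups in every library. Sp7 (ENSMUSG00000060284) was lowest among the 10 in OAC1 at 5.20 CPM, had a median of 112 CPM and was highest in O2 at 397 CPM. It was 0.616 CPM in A1, 0.486 CPM in A2, 1.03 CPM in A3 and 0.872 CPM in AC3. OA2 at 13.4 CPM and O1 at 22.3 CPM were also far below the median. Even OAC1 was 5.01-fold above A3, the highest library without osteogenic potential, with a small constant added to both levels. The log2 fold change of Sp7 was 7.44 ± 1.25 (SE, 10 against 4 libraries; edgeR FDR 0.0843, DESeq2 adjusted p 4.33e-18). EdgeR called Sp7 without OAC1 (FDR 0.0171), without OA2 (FDR 0.0435) and without OA2 and O1 together (FDR 0.0461). Its edgeR FDR rose to 0.265 without A2 and to 0.315 with additive terms for the 3 potentials, at log2 fold changes of 7.28 and 7.19.

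Col1a1 (ENSMUSG00000001506), the α1 chain of type I collagen, ranged from 22487 CPM in OAC3 through a median of 40650 CPM to 55512 CPM in O1. In the non-osteogenic libraries it was 9335 CPM in A1, 4956 CPM in A2, 11231 CPM in A3 and 18325 CPM in AC3. Every group thus made abundant collagen transcript, and AC3 came close to the lowest osteogenic-capable library. The log2 fold change was 1.85 ± 0.35 (edgeR FDR 0.0901, DESeq2 adjusted p 3.18e-06). Clec11a (ENSMUSG00000004473) was lowest in OA2 at 6.32 CPM, had a median of 31.8 CPM and reached 252 CPM in O1. It was 1.11 CPM in A1, 1.58 CPM in A2, 0.915 CPM in A3 and 4.36 CPM in AC3. Its log2 fold change was 5.01 ± 1.04 (edgeR FDR 0.105, DESeq2 adjusted p 1.58e-08). The 3 markers were chosen with results of these libraries known. DESeq2 called all 3 with each of the 14 libraries left out in turn. Osteolectin's integrin did not separate the groups: Itga11 had a log2 fold change of 0.94 ± 0.52 (edgeR FDR 0.655) and Itgb1 of -0.19 ± 0.28 (edgeR FDR 0.965).

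**Figure D1:**
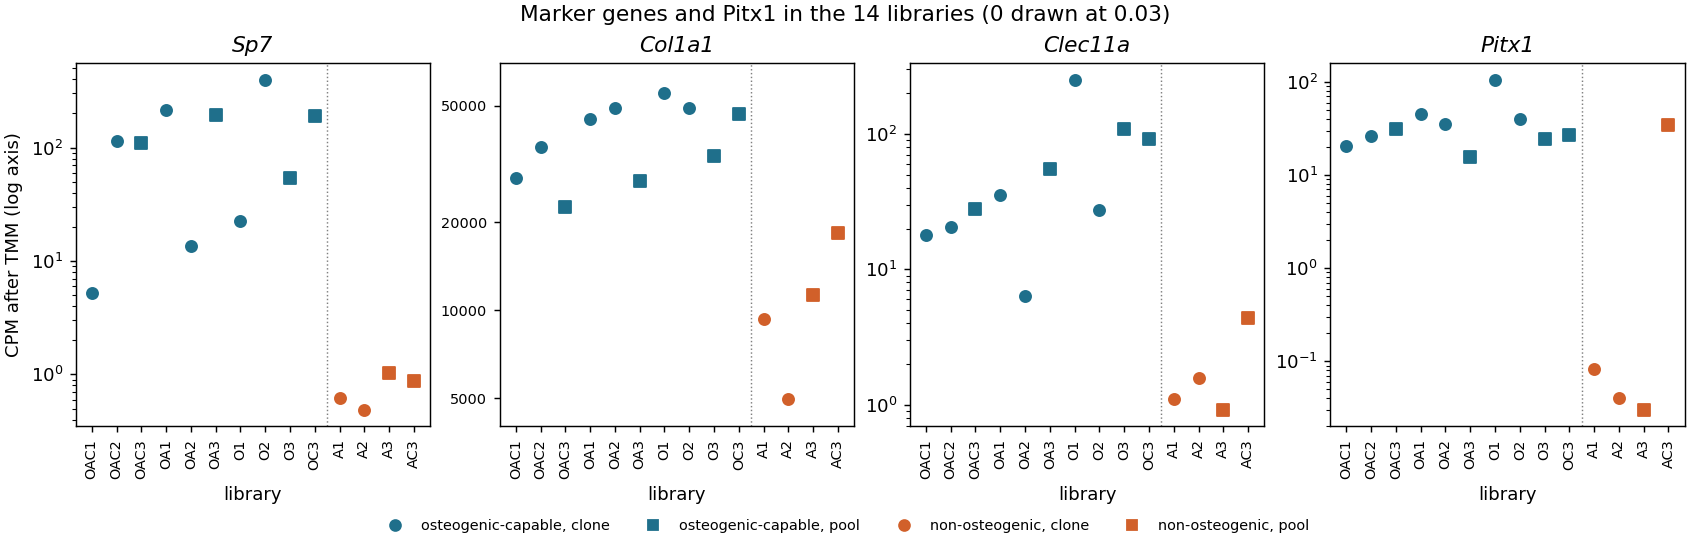
Level of Sp7, Col1a1, Clec11a and Pitx1 in each of the 14 libraries, in CPM after TMM scaling on a log axis, with circles for clones, squares for pools and a dotted line between the 10 osteogenic-capable and the 4 non-osteogenic libraries (0 is drawn at 0.03). The first 3 genes have no overlap between the groups, with Sp7 at 5.20 CPM or more in the 10 and at most 1.03 CPM in the 4, whereas Pitx1 is at 34.2 CPM in AC3 and at most 0.0822 CPM in A1, A2 and A3.

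A total of 13896 genes passed the expression filter (1 CPM or more in 3 or more libraries), and edgeR called 0 (0%) at an FDR of 0.05. The smallest FDR was 0.0532, for Gpc1 and Mthfd2, and 19 genes were under 0.1. With an unadjusted p below 0.05, 685 genes (4.93%) were higher and 592 (4.26%) were lower in the osteogenic-capable libraries. DESeq2 called 282 genes higher (2.03%) and 96 lower (0.691%), and 185 in all without A2. EdgeR called 17 genes without OAC1, 4 without OA2, 2 without A1 or AC3, 1 without OA1, O3 or A3, and 11 without OA2 and O1 together. A difference carried by every library was counted directly, as a gene whose lowest level in one group lay above its highest level in the other: 84 genes (0.604%) were higher in all 10 osteogenic-capable libraries and 63 (0.453%) were lower in all 10. DESeq2 called 75 of the 84 and 32 of the 63. Both counts come from the libraries in which the genes were chosen for lack of overlap, so they are not separate evidence.

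Most of these gaps, taken with a small constant added to each level, were narrow. Between the nearest libraries of the 2 groups, 4 of the 84 higher genes had a gap of at least 2-fold: Sp7 at 5.01-fold, the ectonucleotidase gene Entpd3 at 2.23-fold, and the glypican Gpc1 and the homeobox gene Hoxc11 at 2.13-fold. Of the 63 lower genes only Pip5k1b, a phosphatidylinositol phosphate kinase, reached that size, at 2.23-fold. The median gap was 1.08-fold for the higher and 1.06-fold for the lower genes, and 48 and 38 genes had a gap under 1.1-fold. Just outside the rule, with 1 osteogenic-capable library on the wrong side, lay 148 more higher and 138 more lower genes. OAC1 was that library for 34 and 42 of them, and it was also the osteogenic-capable library nearest to the other group in 25 of the 84 and 23 of the 63. At the far end, O1 was the highest library for 35 of the 84 and the lowest for 24 of the 63.

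The split between directions depended on scaling. With DESeq2 size factors 104 genes were higher and 45 lower, with total counts 46 and 108, and after correction for GC content 96 and 69. The 3 scalings shared 45 higher and 44 lower genes, and the GC-corrected values left 35 and 26 in common. Sp7, Col1a1, Clec11a, Ibsp, Slc13a5, Dlx5, Fmod, Gpc1, Hoxc11, Mthfd2, Nfatc4, Cdsn and Ror2 were among the 35, whereas Alpl, Dlx3, Atf4, Slc7a5, Pycr1 and Lepre1 were not. Adamts14, Adcyap1r1, Ifngr1, Tex2, Spnb2, Stx3, Arid3a and Pip5k1b were among the 26, whereas Casp4, Ccl7, Glrx, Tmem49, Ankfy1 and Aldh1a2 were not. Median transcript GC content was 55.2% for the 84 higher genes, 48.2% for the 63 lower genes and 50.9% for all genes tested. Its part in the separations was not tested beyond the corrected values. The counts also moved with the libraries used: 149 higher and 153 lower without A1, 109 and 100 without A2, 198 and 151 without A3, 162 and 138 without AC3, 118 and 105 without OAC1, and 135 and 109 without OA2 and O1.

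**Figure D2:**
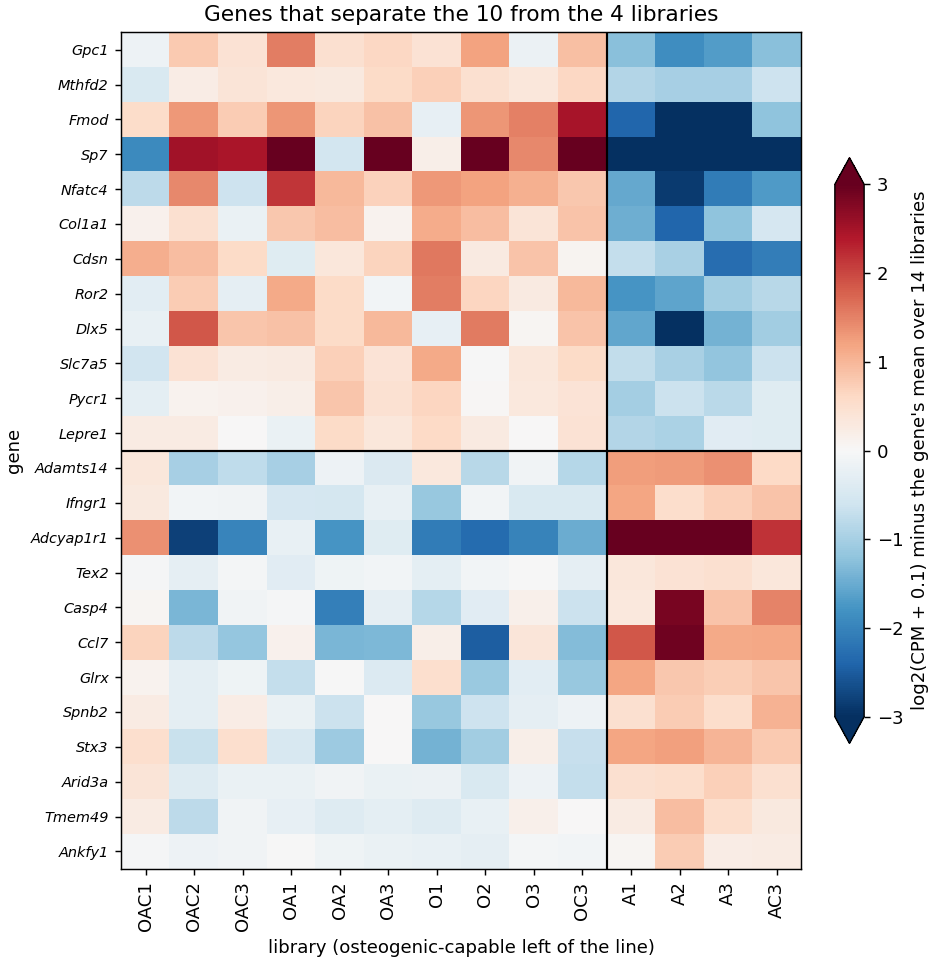
Heat map of 24 genes whose levels do not overlap between the groups (rows; 12 higher above the line and 12 lower below it) in the 14 libraries (columns, osteogenic-capable left of the line). Colour is log2(CPM + 0.1) minus the gene's mean over the 14 libraries; Sp7, with a median of 112 CPM in the 10 against at most 1.03 CPM in the 4, shows the strongest contrast of the upper rows, and Adcyap1r1, with a median of 0.0930 CPM against at least 3.05 CPM, that of the lower rows.

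Of 15 osteoblast transcription factors tested, Sp7, Dlx5, Dlx3 and Atf4 separated the groups, and Runx2 was among the 11 that did not. Dlx5, a homeobox factor that promotes osteoblast formation, ranged from 12.7 CPM in O1 through a median of 27.0 CPM to 54.6 CPM in OAC2. In A1, A2, A3 and AC3 it was 5.01, 1.66, 5.57 and 7.25 CPM, all below the 10, with a log2 fold change of 2.49 ± 0.48 (edgeR FDR 0.0901, DESeq2 adjusted p 2.09e-06). Dlx3, a related factor, was much lower, at 0.428 to 12.1 CPM in the 10 and 0.0381 to 0.317 CPM in the 4. Runx2 had a median of 108 CPM in the 10, between 55.9 CPM in OA2 and 218 CPM in O2. It was 86.4 CPM in A1, 83.9 CPM in A2, 58.4 CPM in A3 and 65.7 CPM in AC3, inside the range of the 10. Its log2 fold change was 0.80 ± 0.33 (edgeR FDR 0.435, DESeq2 adjusted p 0.189). Atf4, a stress-activated factor that also acts in osteoblasts, ranged from 276 to 608 CPM in the 10 and from 183 to 269 CPM in the 4, a gap of little width that was kept after GC correction and lost with total counts. The 4 separating factors of 15 stand beside 0.604% of all genes tested. At unadjusted p below 0.05, 7 factors were higher and 2 lower (4.93% and 4.26% of all genes), and 5 were called higher by DESeq2 (2.03% of all genes). The list's median log2 fold change was 0.67, against -0.01 for all genes tested.

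Genes of bone matrix and mineralization lay higher in the osteogenic-capable libraries. Of 28 tested, 23 had a log2 fold change above 0, and 21 were higher and 1 was lower with an unadjusted p below 0.05 (4.93% and 4.26% of all genes). The DESeq2 calls were 16 higher and 1 lower (2.03% and 0.691% of all genes). Col1a1, Clec11a, Slc13a5, Alpl and Ibsp, 5 of the 28, separated every library (0.604% of all genes). The median log2 fold change was 1.85. Summed over the list, levels were 54193 to 106477 CPM in the 10 and 21257 to 47934 CPM in the 4, a sum dominated by collagen.

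The starts of 3 of these genes are shown as examples, among the 16 of the list that DESeq2 called higher. Bglap, described further on, is not among the 84. The promoter table holds no window for Sp7 or Col1a1. Of the 84 higher genes, 57 have promoter windows in the RefSeq table (GRCm38.p6), each of 300 bases running from 250 before to 50 after the annotated start. Each window is given 5′ to 3′ on the gene's own strand, with capitals marking a match to a searched motif. Both strands were searched for 3 motifs. The RUNX motif was TGTGGT. The homeodomain motif was TAATTA, which reads alike on both strands. The PITX motif was TAATCC. Matches to different motifs overlapped in 0 of the 74 windows of the higher genes and in 24 of all 32851 windows. The windows lie at chr3:88384417-88384716 for Bglap (osteocalcin), chr4:137766426-137766725 for 1 of 2 starts of Alpl, and chr7:44306910-44307209 for Clec11a, all on the minus strand.
Bglap: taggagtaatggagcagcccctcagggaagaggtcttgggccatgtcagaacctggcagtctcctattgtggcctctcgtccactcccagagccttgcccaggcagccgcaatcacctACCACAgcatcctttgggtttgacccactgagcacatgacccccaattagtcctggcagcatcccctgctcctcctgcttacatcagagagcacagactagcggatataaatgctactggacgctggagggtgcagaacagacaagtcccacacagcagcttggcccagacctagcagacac
Alpl: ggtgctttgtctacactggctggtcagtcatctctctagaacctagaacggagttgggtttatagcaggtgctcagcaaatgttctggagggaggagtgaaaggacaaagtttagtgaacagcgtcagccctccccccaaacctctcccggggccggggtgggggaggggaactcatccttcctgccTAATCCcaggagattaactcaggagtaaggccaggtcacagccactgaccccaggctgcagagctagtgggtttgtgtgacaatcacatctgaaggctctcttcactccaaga
Clec11a: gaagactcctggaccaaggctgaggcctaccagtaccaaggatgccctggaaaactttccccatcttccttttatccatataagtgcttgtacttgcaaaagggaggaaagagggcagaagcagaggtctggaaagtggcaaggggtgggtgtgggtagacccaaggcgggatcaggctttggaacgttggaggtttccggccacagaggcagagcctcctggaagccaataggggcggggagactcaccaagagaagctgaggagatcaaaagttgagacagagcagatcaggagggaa

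The Bglap window holds the RUNX letters in reverse 132 bases before the start, the Alpl window holds the PITX letters 63 bases before the start, and the Clec11a window holds none of the 3. The window of the other Alpl start, not shown, also holds none of the 3. The RUNX letters occurred in 8 of 74 windows of the higher genes (10.8%) and 6 of 57 windows of the lower genes (10.5%), against 12.4% of windows of all genes tested and 16.8% of all 32851 windows. The PITX letters occurred in 6.76% and 3.51%, against 5.57% of windows of the genes tested. The homeodomain letters occurred in 0 of the 74 and in 5.26% of the 57, against 2.44%. A match describes these letters in this window only.

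The products of the bone genes differed in how far the groups lay apart. Alpl, the tissue-nonspecific alkaline phosphatase, ranged from 159 CPM in O1 through a median of 1103 CPM to 2689 CPM in O2. It was 146 CPM in A1, 70.1 CPM in A2, 45.5 CPM in A3 and 30.6 CPM in AC3, so that O1 and A1 nearly met. Its log2 fold change was 3.81 ± 0.83 (edgeR FDR 0.105, DESeq2 adjusted p 7.61e-07). Ibsp was 1.02 CPM in OA2, 208 CPM in the median and 1518 CPM in OA3, against 0, 0.648, 0.229 and 0.159 CPM in A1, A2, A3 and AC3. Over all libraries this is 108637 reads against 26, a ratio of 1820.1 per sequenced read (95% interval 1242 to 2786, counting error only). Slc13a5, a citrate transporter of bone-forming cells, was detected in all 10, from 0.132 CPM in OAC1 to 297 CPM in O2, and was at 0 in A1, A2 and AC3. A3 held 0.114 CPM, and 20689 reads against 3 gave a ratio of 3004 (95% interval 1028 to 14568, counting error only). The lowest osteogenic-capable library thus lay next to A3, with a gap of 1.14-fold between levels of a few reads each. OAC2 at 0.251 CPM and OA2 at 0.375 CPM were also near the floor. The separation of Slc13a5 therefore rests on very few reads.

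Osteocalcin, a late osteoblast product, overlapped between the groups. Bglap ranged from 0.176 CPM in OAC1 through 2.95 CPM to 14.7 CPM in O2, and was 0.411, 0.324, 0.114 and 0.674 CPM in A1, A2, A3 and AC3. Its log2 fold change was 3.43 ± 0.95 (edgeR FDR 0.192, DESeq2 adjusted p 0.00143), and reads may be shared with its near-identical neighbour Bglap2. The parathyroid hormone receptor Pth1r had a log2 fold change of 4.72 ± 1.18 (DESeq2 adjusted p 4.83e-06), but O1 at 3.12 CPM and OAC1 at 4.14 CPM lay below A2 at 4.74 CPM and AC3 at 4.95 CPM. Osteopontin (Spp1) overlapped fully, at 143 to 2059 CPM in the 10 and 913 to 1343 CPM in the 4, with a log2 fold change of -0.71 ± 0.57 (edgeR FDR 0.849). The 1 list member that DESeq2 called lower was Enpp1, which makes pyrophosphate, an inhibitor of mineralization. Enpp1 was 7.06 to 31.1 CPM in the 10 and 29.7 to 54.3 CPM in the 4, with a log2 fold change of -1.56 ± 0.34 (edgeR FDR 0.105, DESeq2 adjusted p 0.00401).

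**Figure D3:**
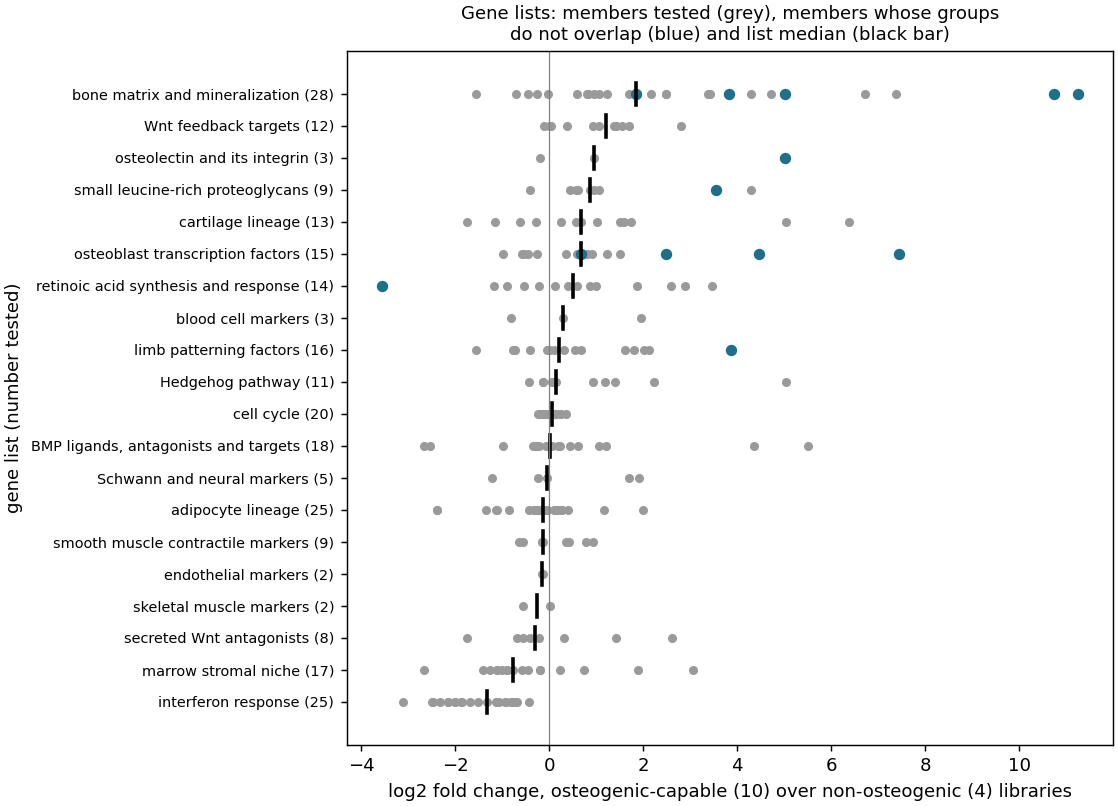
Log2 fold change, 10 osteogenic-capable over 4 non-osteogenic libraries, of each tested member of 20 gene lists (grey), with members whose groups do not overlap in blue and each list's median as a black bar. The bone matrix list has the highest median of the lists, 1.85, and the interferon list the lowest, -1.33, with 0 of its 25 members above 0.

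Of the separating genes outside the bone lists, Gpc1, Mthfd2 and Fmod had the lowest p-values. Gpc1 (ENSMUSG00000034220), a heparan sulfate proteoglycan that binds growth factors, ranged from 350.1 CPM in O3 through 576 CPM to 1129.8 CPM in OA1. It was 164 CPM in A1, 107 CPM in A2, 122 CPM in A3 and 163 CPM in AC3. Those 4 libraries lay close together and well below the 10, and the log2 fold change was 2.19 ± 0.32 (edgeR FDR 0.0532, DESeq2 adjusted p 7.61e-11). Fmod, the collagen-binding proteoglycan fibromodulin, was 154 CPM in O1, 391 CPM in the median and 1008 CPM in OC3. It was 34.7, 13.6, 19.4 and 78.5 CPM in A1, A2, A3 and AC3, a log2 fold change of 3.54 ± 0.57 (edgeR FDR 0.0843, DESeq2 adjusted p 1.48e-10). Of 9 small leucine-rich proteoglycans tested, Fmod alone separated the groups, and the list's median was 0.86. Nfatc4, a calcium-regulated transcription factor, ranged from 27.7 CPM in OAC1 to 214 CPM in OA1, against 6.48 to 16.5 CPM in the 4. The Wnt5a receptor Ror2 ranged from 30.9 to 112 CPM against 11.1 to 21.4 CPM. Corneodesmosin (Cdsn), an adhesion protein known from skin, ranged from 137 to 521 CPM against 35.8 to 107 CPM.

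Mthfd2, a mitochondrial folate enzyme, was 81.8 CPM in OAC1, 145 CPM in the median and 185 CPM in O1. It was 61.5 CPM in A1, 56.7 CPM in A2, 56.4 CPM in A3 and 72.8 CPM in AC3. The 4 non-osteogenic libraries were alike and OAC1 was the nearest of the 10, with a log2 fold change of 1.24 ± 0.18 (edgeR FDR 0.0532, DESeq2 adjusted p 1.43e-08). The amino acid transporter Slc7a5 ranged from 156 to 513 CPM against 102 to 148 CPM, and the proline synthesis enzyme Pycr1 from 38.4 to 84.4 CPM against 23.2 to 36.7 CPM. Lepre1, a prolyl hydroxylase that modifies collagen, ranged from 105 to 184 CPM against 62.9 to 95.7 CPM. DESeq2 called each of these 4 genes, with all libraries and without any 1 of them, and all but Mthfd2 lost their separation after GC correction or another scaling.

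Of the 63 genes lower in every osteogenic-capable library, those with the lowest p-values included the procollagen peptidase gene Adamts14. It was 11.4 CPM in OAC2, 15.2 CPM in the median and 29.1 CPM in OAC1, against 54.5 CPM in A1, 55.2 CPM in A2, 59.0 CPM in A3 and 34.6 CPM in AC3. AC3 was the nearest of the 4 to OAC1, and the log2 fold change was -1.51 ± 0.26 (edgeR FDR 0.0866, DESeq2 adjusted p 0.000201). Ifngr1, a chain of the interferon gamma receptor, was 28 to 76.2 CPM in the 10 with a median of 48.9 CPM. It was 139.6, 89.5, 102 and 111 CPM in A1, A2, A3 and AC3, a log2 fold change of -1.12 ± 0.20 (edgeR FDR 0.0866, DESeq2 adjusted p 0.000181). Adcyap1r1, a receptor for the neuropeptide PACAP, was at or near 0 in most of the 10 (0 to 1.72 CPM, median 0.0930 CPM) and was 7.97, 13.7, 8.65 and 3.05 CPM in the 4. Its log2 fold change was -4.67 ± 0.84 (edgeR FDR 0.0901, DESeq2 adjusted p 9.96e-05).

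Tex2 varied little within either group, at 26.4 to 33.3 CPM in the 10 and 42.6, 45.3, 47.2 and 42.7 CPM in A1, A2, A3 and AC3. Its log2 fold change was -0.55 ± 0.11 (edgeR FDR 0.104, DESeq2 adjusted p 4.88e-07). The chemokine gene Ccl7 was 3.04 to 27.7 CPM in the 10 and 63.0, 132, 38.5 and 39.0 CPM in the 4. The inflammatory caspase gene Casp4 was 0.589 to 3.04 CPM against 3.41, 20.3, 5.03 and 7.81 CPM. A2 was the highest library for both, and without A2 DESeq2 no longer called them (adjusted p 0.0692 and 0.0815). Glutaredoxin (Glrx), at 10.3 to 32.8 CPM against 38.1 to 51.8 CPM, lost its call without A1 (adjusted p 0.0745). The spectrin gene Spnb2 (278 to 723 CPM against 849 to 1257 CPM) lost its call without A2 or AC3 and the syntaxin gene Stx3 (5.28 to 20.2 CPM against 24.3 to 33.3 CPM) without A1 or A2. Arid3a, a DNA-binding factor, kept its call without any 1 library, at 5.72 to 12.5 CPM against 13.3 to 15.6 CPM. Ankfy1 and Tmem49 differed by less, with log2 fold changes of -0.47 ± 0.12 and -0.70 ± 0.18, and lost their calls without A2.

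Lists of other lineages and pathways had no member called by edgeR. The adipocyte list, whose genes serve fat storage, had 8 of 25 members above 0, a median of -0.13 and 0 separating genes. Pparg, the main adipogenic transcription factor, was 3.52 to 43.7 CPM in the 10 and 34.4, 55.2, 28.2 and 30.8 CPM in the 4, with a log2 fold change of -1.11 ± 0.49 (edgeR FDR 0.503). Cebpa and the lipase gene Lpl likewise overlapped, with log2 fold changes of -0.86 ± 0.50 and -2.40 ± 1.00 (edgeR FDR 0.678 and 0.451). The marrow niche list had a median of -0.78, which became -0.24 without AC3. Of 17 members tested, 4 were above 0. At unadjusted p below 0.05, 7 were lower and 1 higher (4.26% and 4.93% of all genes), and DESeq2 called 1 higher (2.03% of all genes). Without AC3, 1 was lower and 1 higher at unadjusted p below 0.05, against 530 and 602 of all 13896 genes. The list's ligand Cxcl12 was 290.5 to 4231 CPM in the 10 and 2410.4 to 5125 CPM in the 4 (log2 fold change -1.27 ± 0.56, edgeR FDR 0.498). The cartilage list had a median of 0.68, and its regulator Sox9 had a log2 fold change of 0.24 ± 0.36 (edgeR FDR 0.965) that turned to -0.02 without A1.

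Interferon response genes were lower in the osteogenic-capable libraries on the fitted scale, with 0 of 25 above 0 and a median of -1.33. An unadjusted p below 0.05 was found for 12 lower genes (4.26% of all genes), and 2 were called lower by DESeq2 (0.691% of all genes), the antiviral GTPase gene Mx1 and the RNA sensor gene Ifih1. The list rested on few libraries: its summed level was 3152 CPM in A2, 1499 CPM in A3, 1625 CPM in AC3 and only 468 CPM in A1, against 232 to 2195 CPM in the 10, with OA2 the highest. Without A2 the median was -0.67, and the DESeq2 call of Ifih1 was kept in only 5 of 14 fits that left out 1 library, A2 among the others. Mx1 was 15.7 CPM in A2 and at most 1.74 CPM elsewhere. Wnt feedback targets had a median of 1.21, with 10 of 12 above 0 and DESeq2 calling only Tcf7, whose call was lost without A2, A3 or AC3. Of the Hedgehog pathway, with a median of 0.13, DESeq2 called the ligand Ihh and the receptor Ptch1 higher, the latter not without A2. The retinoic acid list had a median of 0.50, and its synthesis enzyme Aldh1a2 was 0 to 11.1 CPM in the 10 against 25.2, 98.4, 22.7 and 11.2 CPM in the 4 (log2 fold change -3.57 ± 1.03, edgeR FDR 0.222, DESeq2 adjusted p 0.0518).

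Medians of the remaining lists were 0.21 for limb patterning factors, 0.94 for osteolectin with its integrin, -0.31 for secreted Wnt antagonists, 0.01 for BMP genes, 0.05 for the cell cycle (-0.0002 with total counts) and -0.14 for smooth muscle genes. Among the marker lists of other cell types the medians were 0.29 for 3 blood genes tested, -0.15 for 2 endothelial genes, -0.05 for 5 Schwann and neural genes and -0.27 for 2 skeletal muscle genes. The cell cycle list held 0 genes under an unadjusted p of 0.05 and 0 DESeq2 calls. Levels were uneven among the 10: the list's sum was 361 CPM in O1, next to 1350 CPM in OAC1, and up to 2678 CPM in OA1. In the 4 it was 1540 to 2127 CPM. Hoxc11, the 1 limb factor that separated the groups, was 6.26 to 30.8 CPM in the 10 and 0.657, 0, 2.94 and 0.119 CPM in the 4.

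AC3, an adipo-chondrogenic pool, served as the library that tests whether a gene marks lack of osteogenic potential or only the adipogenic-only group. The 10 libraries were first set against A1, A2 and A3, leaving AC3 out. These comparisons share their libraries with the full comparison, so their values are given side by side and not as separate evidence. EdgeR called 2 genes (0.0144%), Pitx1 and Fmod, both higher, and 1132 genes were under an unadjusted p of 0.05. DESeq2 called 263 higher (1.89%) and 55 lower (0.396%). It called 174 in all without A1, 162 without A2 and 612 without OA2 and O1, and edgeR called 19 without OAC1.

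Pitx1 (ENSMUSG00000021506), a homeobox factor of hindlimb identity, set the 10 libraries apart from A1, A2 and A3 but not from AC3. It was 15.7 CPM in OA3, 29.0 CPM in the median and 106 CPM in O1. It was 0.0822 CPM in A1, 0.0405 CPM in A2 and 0 in A3, but 34.2 CPM in AC3. AC3 thus lay above the median of the osteogenic-capable libraries. Against A1, A2 and A3 the 10 libraries held 7620 reads to 3, a ratio of 819 (95% interval 280.2 to 3974, counting error only), and Pitx1 was called by edgeR (FDR 0.00158; 13 of 13 libraries could be left out in turn) and DESeq2 (adjusted p 4.92e-20). With AC3 among the 4 its log2 fold change was 2.12 ± 1.31 (edgeR FDR 0.721). Fmod had a log2 fold change of 4.23 ± 0.59 against A1, A2 and A3 (edgeR FDR 0.0386, DESeq2 adjusted p 1.66e-17), and AC3 at 78.5 CPM stayed below the 10. Its edgeR call was lost in 10 of 13 fits that left out 1 library (FDR 0.310 without A2 and 0.255 without A3) and kept without OAC1, O1 or OC3.

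Without AC3, 162 genes (1.17%) were higher and 138 (0.993%) lower in all 10 libraries than in A1, A2 and A3. AC3 lay on the A side of the 10 for 84 of the 162 (51.9%) and 63 of the 138 (45.7%), and among the 10 or beyond for 78 and 75. Treating each other library in the same way, the share of genes that held was 48.7% for A1, 70.3% for A2 and 42.1% for A3, and from 65.9% (OAC1) to 95.5% (OA3) for the 10. AC3, at 49.0% over both directions, therefore fell within the range of the A libraries. On a scale where 0 is the mean log2 CPM of A1, A2 and A3 and 1 that of the 10, AC3 had a median position of 0.373 for the higher and 0.403 for the lower genes, and 0.153 over all genes tested. It was nearer to A for 56.8% and 55.1% of these genes, and for 56.2% of all genes tested. The share nearer to A was close to that of all genes tested, whereas the median positions were farther from A. Many of all genes tested differed little between the groups (median absolute log2 fold change 0.224 in the full comparison), which leaves their position poorly defined. Their share is therefore no baseline for the genes chosen here.

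**Figure D4:**
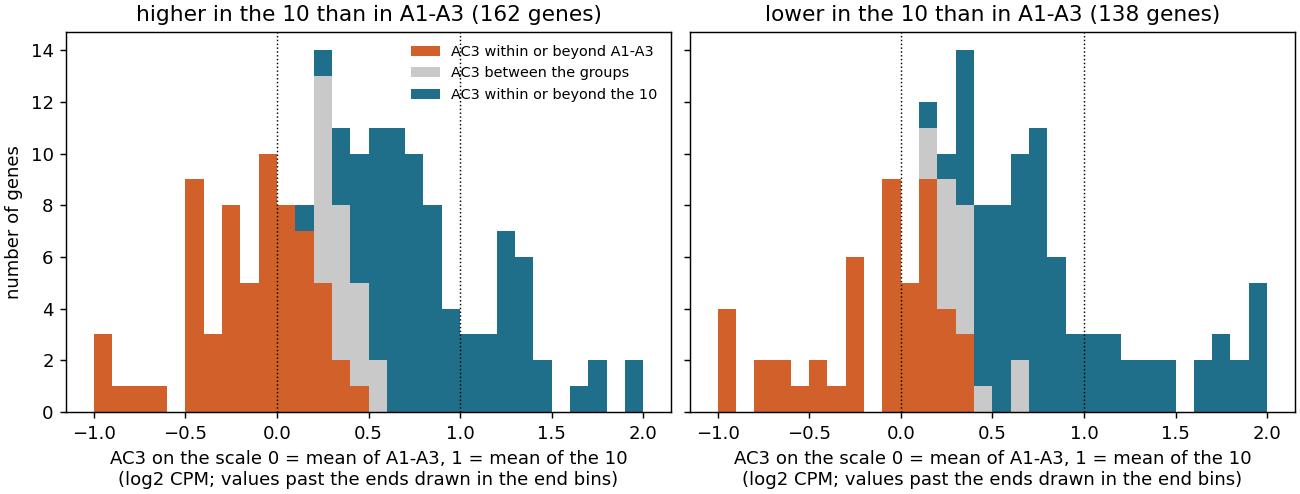
Position of AC3 for the 162 genes higher (left) and 138 genes lower (right) in all 10 osteogenic-capable libraries than in A1, A2 and A3; the x axis runs from 0, the mean log2 CPM of A1, A2 and A3, to 1, the mean of the 10, and the y axis counts genes. Colours show whether AC3 lay within or beyond A (64 and 48 genes), between the groups (20 and 15) or within or beyond the 10 (78 and 75).

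Genes on which AC3 sided with the osteogenic-capable libraries included the fibrillar collagen genes Col1a2 and Col3a1 and the matrix gene Comp. Fibrillar collagen did not side with them as a whole: for Col1a1, AC3 at 18325 CPM lay below the lowest of the 10, at 22487 CPM. Of 13 cartilage list members tested, only 2, Prg4 and Comp, separated the 10 from A1, A2 and A3. The list as a whole therefore does not place AC3. Col1a2, the α2 chain of type I collagen, was 7543 CPM in A1, 6935 CPM in A2, 8742 CPM in A3 and 14099.8 CPM in AC3, against 11617 to 27602 CPM in the 10. Comp, a matrix protein of cartilage and tendon, was 1.89, 1.58 and 1.11 CPM in A1, A2 and A3 and 12 CPM in AC3, against 2.78 to 13.2 CPM in the 10. Type III collagen (Col3a1) was 675, 300.2 and 464 CPM in A1, A2 and A3 and 4845 CPM in AC3, above the 10 libraries' median of 2879.5 CPM. Mest, an imprinted gene of mesoderm, was 29.7, 1.62 and 8.54 CPM in A1, A2 and A3 and 88.5 CPM in AC3, within the 77.9 to 234 CPM of the 10. Adh7, a retinol-oxidizing alcohol dehydrogenase, was 6.27 to 6.79 CPM in A1, A2 and A3, 13 CPM in AC3 and 10.3 to 37.6 CPM in the 10. Among lower genes, Hmga2, a chromatin protein of proliferating progenitors, was 59.2, 105 and 89.4 CPM in A1, A2 and A3 and 46.2 CPM in AC3, inside the 8.96 to 55.9 CPM of the 10. DESeq2 called Col1a2, Comp, Col3a1, Mest, Adh7 and Hmga2 against A1, A2 and A3, but Hmga2 not without A2 or A3.

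Restricting the comparison to adipogenic-capable libraries left 6 osteogenic-capable libraries (OAC and OA) against the same 4. EdgeR called 0 genes (0%; smallest FDR 0.123, 1061 genes under an unadjusted p of 0.05), 4 without OAC1 and 2 without AC3. DESeq2 called 142 higher (1.02%) and 51 lower (0.367%), 293 in all without OAC1 and 120 without A2. Levels did not overlap for 151 higher (1.09%) and 137 lower genes (0.986%), which include every separating gene of the full comparison by construction. Sp7 was 5.20 to 216 CPM in the 6 with a median of 112 CPM (log2 fold change 7.18 ± 1.14, edgeR FDR 0.192, DESeq2 adjusted p 7.54e-16). Clec11a was 6.32 to 55.2 CPM with a median of 24.3 CPM (log2 fold change 3.79 ± 0.67, DESeq2 adjusted p 2.83e-07), so its levels above 55.2 CPM were all in libraries without adipogenic potential. Col1a1 had a log2 fold change of 1.72 ± 0.39 (edgeR FDR 0.318, DESeq2 adjusted p 0.00135). Pparg was -0.60 ± 0.38 here (edgeR FDR 0.750) and -1.11 in the full comparison.

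Some genes separated the 6 from the 4 but not the full set. Myo1d, an unconventional myosin, was 118 to 204 CPM in the 6 and 49.7, 54.3, 65.2 and 82.4 CPM in A1, A2, A3 and AC3 (log2 fold change 1.5 ± 0.21, edgeR FDR 0.123, DESeq2 adjusted p 3.80e-08), whereas O3 at 75.3 CPM lay below AC3. Syndecan-3 (Sdc3), a cell surface proteoglycan, was 637 to 1093 CPM in the 6 and 253 to 358 CPM in the 4 (log2 fold change 1.49 ± 0.22, DESeq2 adjusted p 2.17e-08). O1, at 236 CPM, was below all 4. Sorcs2, a sorting receptor, was 37.9 to 71.2 CPM in the 6 and 3.00 to 16.4 CPM in the 4, with O1 at 10.7 CPM. In the other direction, the phosphatidylinositol transfer gene Pitpnc1 was 12.4 to 17.6 CPM in the 6 and 24.1 to 33.0 CPM in the 4 (log2 fold change -0.89 ± 0.17, DESeq2 adjusted p 2.62e-06), with O1 at 24.4 CPM inside the 4. The kinase gene Styk1 was 1.60 to 3.13 CPM against 3.90 to 9.83 CPM, with O3 at 7.98 CPM. The bone matrix list had a median of 1.64 in this comparison, with 24 of 28 members above 0, and the adipocyte list a median of 0.05.

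Clones and pools share no library and were set against each other last. The OAC, OA, O and A pools mix further clones of the same mice, so the sets are not independent. In both sets only the osteogenic-capable side holds libraries without adipogenic potential (O1 and O2, O3 and OC3). Agreement between the sets therefore cannot be told apart from a shared difference in adipogenic potential. Among the 8 clones, 615 genes (4.43%) were higher and 591 (4.25%) lower in all 6 osteogenic-capable clones than in A1 and A2. Among the 6 pools, 1334 genes (9.6%) were higher and 1287 (9.26%) lower in OAC3, OA3, O3 and OC3 than in A3 and AC3. Of the 615 genes higher in the clones, 178 (28.9%) separated the pools in the same direction, as against 9.6% of all genes, and 22 (3.58%) in the opposite one. Of the 591 lower genes, 155 (26.2%) did so, against 9.26%, and 8 (1.35%) went the opposite way. The 178 and 155 were 13.3% and 12% of the genes that separated the pools. A difference of the same sign in the pools was found for 74.8% of the 615 (51.7% of all genes) and 80.2% of the 591 (48.3% of all genes). The interaction of osteogenic potential with pooling had 0 genes called by edgeR (smallest FDR 0.999, 229 under an unadjusted p of 0.05, 1 gene without A3) and 2 by DESeq2. The log2 fold change of Sp7 was 7.17 in the 6 pools (edgeR FDR 0.0440) and 7.89 in the 8 clones (edgeR FDR 0.995).

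**Figure D5:**
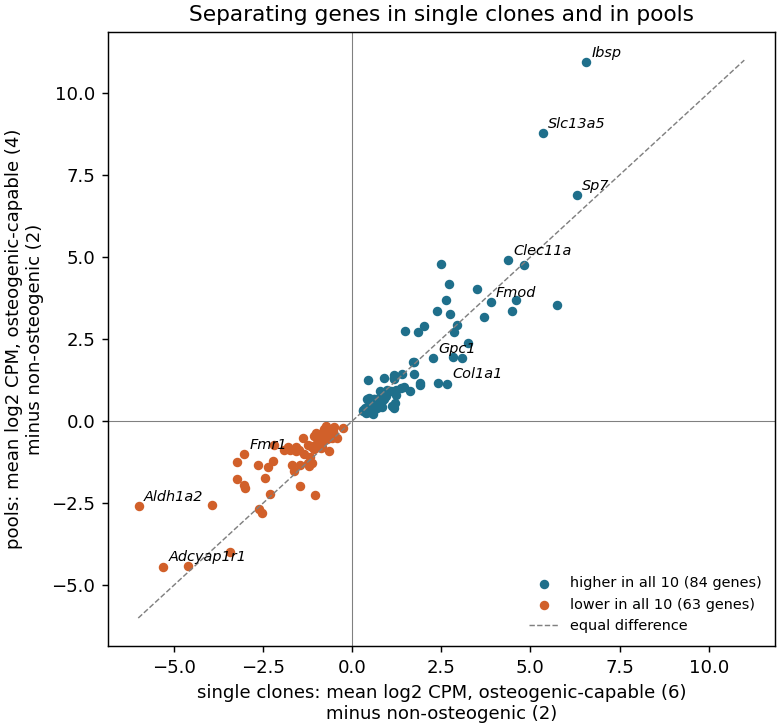
Difference in mean log2 CPM between osteogenic-capable and non-osteogenic libraries in the 8 clones (x axis, 6 minus 2) and in the 6 pools (y axis, 4 minus 2), for the 84 genes higher and 63 genes lower in all 10 libraries; the dashed line marks equal differences. Every point lies in the quadrant of its own direction because the choice of genes fixes the sign in both.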

How the data were processed

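The 14 libraries were stranded and made from oligo(dT)-selected RNA, per the labels. The authors deposited 1 table of raw read counts per gene, with 23331 genes named by Ensembl number and symbol. The submitters' processing notes name CASAVA 1.8.0, bedtools 2.11 and build mm9; aligner, read filters and counting strand were not given in the sources used here, so reads of genes that overlap or nearly match another may be misassigned. The 13896 genes reaching 1 CPM in 3 or more libraries were tested with the quasi-likelihood test of edgeR 4.0.16 in R 4.3.3 (TMM, robust, 2 group means, Benjamini-Hochberg FDR 0.05), with DESeq2 1.42.0 as the alternative. A permutation test planned for Sp7, Col1a1 and Clec11a is not given, since groups that do not overlap fix its result. The SE was taken as the log2 fold change over the root of F. Interval levels are 95% and exact. Named genes are the 12 per direction that do not overlap, reach 5 CPM in the higher group and have the lowest p, 13 genes always named, and up to 3 per list by lowest p; Pip5k1b, Entpd3, Mest, Col3a1 and the genes of the closing section were chosen after their values were seen. The members, the 20 gene lists and the tests were chosen with earlier results of these data known. GC correction used a lowess fit (span 0.3) on transcript GC content, known for 96.4% of genes. Alternatives were other scalings, filters, a replicate block, GC offsets, 6 group means, additive terms for the 3 potentials and leaving out libraries. Leave-outs with DESeq2, and separations without OA2 and O1, in clones and in pools, were added after the data were seen. The fits were tested on artificial counts with known changes. Promoter windows are RefSeq's, GRCm38.p6.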

Additional observations from a re-analysis of the deposited data

Results flagged for a closer look

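Of 56 named genes, each looked at in the 10 and in the 4 libraries (112 groups), 8 had a library whose gap to its nearest neighbour took up an unusually large part of the group's range on the log2 scale. For independent samples the rule would flag about 1 in 20 groups. These genes share the same libraries, and many were chosen because their groups do not overlap. The 8 of 112 therefore cannot be weighed against that rate. Of the 8, 6 lie among the 4 non-osteogenic libraries and 2 among the 10. AC3 was the separate library for 4 genes. It was highest for Pitx1 at 34.2 CPM, where the next was A1 at 0.0822 CPM, and for Adh7 at 13 CPM, where the next was 6.79 CPM. It was lowest for Adamts14 at 34.6 CPM, next to 54.5 CPM, and for Pitpnm2 at 42.9 CPM, next to 119 CPM. A3 was highest for Arid3a at 15.6 CPM, next to 13.6 CPM, and lowest for Cebpa at 47.1 CPM, next to 81.6 CPM. Among the 10, OAC1 was lowest for Mthfd2 at 81.8 CPM, next to 132 CPM, and OC3 was lowest for the xanthine dehydrogenase gene Xdh at 10.6 CPM, next to 40.1 CPM.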

How the results depend on the processing

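Results for osteogenic-capable vs non-osteogenic libraries depended on the tool and on single libraries. The edgeR count of 0 became 378 with DESeq2, 7 with no filter, 11 without OA2 and O1, 2 with a GC offset, 9 in pools only, and 0 to 17 with a library left out; the DESeq2 count became 185 to 467. Sp7 passed with DESeq2 (7.47), no filter (7.44), without OA2 and O1 (7.72) and in pools (7.17), and was 7.07 to 7.63 with a library left out, passing without OAC1 or OA2. Col1a1 and Clec11a passed with DESeq2 (1.87 and 5.05), and Clec11a without OA2 and O1 (4.59). For osteogenic-capable vs adipogenic-only, the edgeR count of 2 became 318 with DESeq2, 7 with no filter, 6 without OA2 and O1, 4 with a GC offset and 1 to 19 with a library left out; the DESeq2 count became 612 without OA2 and O1 and 162 to 422 with a library left out. Within adipogenic-capable libraries the edgeR count of 0 became 193 with DESeq2 and 0 to 4, and the DESeq2 count became 120 to 293. For the interaction, 0 became 2 with DESeq2 and 0 to 1. Separating genes, higher (84) and lower (63), became 46 and 108 with total counts, 135 and 109 without OA2 and O1, 615 and 591 in clones, 1334 and 1287 in pools, and 85 to 198 and 67 to 153 with a library left out. Sox9 turned to -0.0225 without A1 in the full comparison (-0.0225 to 0.5449 with a library left out), and within adipogenic-capable libraries to -0.0127 without OA2 with or without O1 (-0.1062 to 0.4496). The cause was not tested. Over all alternatives, named genes gave 2026 values on the same side, 136 stronger, 13 weaker and 4 reversed; list medians gave 509 within the spread and 11 outside.

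The labels give groups the same replicate numbers but do not say that a number marks a mouse. Of 18 correlations between same-numbered libraries of the OAC, OA, O and A groups, 11 were above 0.1 (range -0.58 to 0.76). They ran from 0.29 to 0.76 for number 3, the pools, from -0.31 to 0.39 for number 1 and from -0.58 to 0.47 for number 2. What the numbers share was not tested, so they were not used as pairs in the main fits. With the replicate block the counts were 0 in the full comparison, 1 (Pitx1) against A, where Fmod lost its call (FDR 0.0910), and 0 within adipogenic-capable libraries. With a GC offset and the block they were 4, 1 and 0. Sp7 was 7.42 and Col1a1 1.85 with the block. Counts of very few reads or none, as for Ihh and Slc13a5 in the 4 libraries, limit what depth can show.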

Other observations

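Gene families for making amino acids and charging transfer RNA, many of their members targets of Atf4, had medians somewhat above that of all genes. These families were assembled after the values were seen and carry no test of their own. Among 12 other genes linked to Atf4, 12 had a log2 fold change above 0, with a median of 0.72 (-0.01 for all genes), 5 were higher at an unadjusted p under 0.05 (4.93% of all genes), and DESeq2 called 4 (2.03% of all genes). Trib3, a pseudokinase induced by amino acid stress, ranged from 48.3 to 151 CPM in the 10 and was 13.2, 39.7, 15.5 and 36.0 CPM in A1, A2, A3 and AC3, with a log2 fold change of 1.69 ± 0.37 (edgeR FDR 0.112, DESeq2 adjusted p 0.00038). Of 20 cytosolic aminoacyl-tRNA synthetases, 16 were above 0, with a median of 0.33, and Aars and Iars separated every library. Of 14 serine, glycine and one-carbon enzymes, 9 were above 0, with a median of 0.21, and Mthfd2 and Phgdh, the entry enzyme of serine synthesis, separated the groups. In 10 enzymes of proline, asparagine, alanine, aspartate and glutamine synthesis the median was 0.33, and Aldh18a1 (238 to 435 CPM against 166 to 179.8 CPM) and Pycr1, both of proline synthesis, separated. Of 20 amino acid transporter entries, with Slc38a9 counted under both of its gene numbers, 12 were above 0. Their median was 0.32, and 0.14 within adipogenic-capable libraries, and Slc7a5 and its partner Slc3a2 separated. With a median of -0.01, all genes tested lay about equally often above and below 0. The 9 of 14 one-carbon enzymes and 12 of 20 transporter entries above 0 are near that share. Over all genes tested, 0.604% were higher in all 10 libraries. Aars, Iars, Phgdh, Pycr1, Slc7a5 and Slc3a2 each had a gap under 1.1-fold. Their separation was lost after GC correction or with another scaling, whereas that of Mthfd2, Aldh18a1 and Trib3 was kept. Proline and glycine are abundant in collagen, as background.

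Genes that modify procollagen went in both directions. Of 21 entries tested, with P4ha2 counted under both of its gene numbers, 16 were above 0, with a median of 0.33. At an unadjusted p under 0.05, 8 were higher and 2 lower (4.93% and 4.26% of all genes). Lepre1 was higher in all 10 libraries and the peptidase gene Adamts14 lower in all 10. Lox, the lysyl oxidase that crosslinks collagen, was 440.0 to 1698 CPM in the 10 and 2193, 1184, 1337 and 2922 CPM in A1, A2, A3 and AC3 (log2 fold change -0.84 ± 0.33, edgeR FDR 0.402), while Fkbp10, a collagen chaperone, was 474 to 1057 CPM against 338 to 479 CPM (0.83 ± 0.20, edgeR FDR 0.169, DESeq2 adjusted p 0.00399). Of 8 glypicans and syndecans, 6 were above 0, and Gpc1 alone separated.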
